A study of Mus musculus with 4 samples.

Results

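Hepatic cholesterol synthesis was examined through 28 genes, chosen from a list of their symbols. They encode the enzymes that turn acetyl-CoA into cholesterol, the SREBP2 proteins that control those enzymes, and proteins of LDL receptor control, sterol transport and sterol esterification. All 28 were found among the 22079 genes of the deposited table. RNA came from primary hepatocytes of Prom1-/- mice (KO, n = 2) and of wild-type mice (WT, n = 2), all C57BL/6 males of 8 weeks and, per the series' design, biological replicates. Prom1 encodes a cholesterol-binding membrane glycoprotein of plasma-membrane protrusions, and the comparison asks what its loss does to the hepatocyte transcriptome without serum. The cells of both genotypes had attached for 4 hours in medium with 10% serum and 10 nM dexamethasone, a glucocorticoid, and were then kept overnight in medium without serum. The labels do not say which cells the Prom1 deletion covers, so effects on the liver before isolation and on the cultured cells cannot be told apart.

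Liver cells make cholesterol by condensing acetyl-CoA units into mevalonate, building isoprenoid chains from it, joining these into squalene and cyclising squalene to lanosterol, which is then trimmed to cholesterol. SREBP2, a transcription factor anchored in the endoplasmic reticulum, drives most of these genes: the escort protein SCAP carries it to the Golgi for cleavage when membrane sterol is low, and the INSIG proteins hold SCAP back when sterol is high. Cholesterol not used in membranes, lipoproteins or bile acids is stored as esters.

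Values are FPKM, that is, fragments divided by transcript length and by the mapped fragments of the library, which allow levels to be compared between genes. Differences are KO minus WT means of log2(FPKM + 1), tested with limma over 10407 genes whose mean reached 1 FPKM; 27 of the 28 genes passed that filter and Soat1 did not. Prom1 itself had 0 FPKM listed for KO 1 and 0.0458 FPKM for KO 2, against 0.571 FPKM for WT 1 and 1.22 FPKM for WT 2, so the genotype labels and the gene's level go together. Of the hepatocyte markers, Apoa1 ran from 5505 to 6228 FPKM and Ttr from 1367 to 1884 FPKM over the 4 libraries, whereas Alb was listed at 0 in WT 2 and ran from 25551 to 32670 FPKM in the other libraries. Of the 7 hepatocyte markers tested, 5 were lower and 2, Alb and Apob, higher in KO, and their median log2 difference was -0.02. The size of the Alb difference, 7.46 with overlapping libraries, rests on the 0 listed for WT 2. Hnf4a, a transcription factor of hepatocyte identity, stood at 64.9 and 59.5 FPKM in KO and at 90.4 and 95.8 FPKM in WT (log2 difference -0.58, limma unadjusted p 0.00134, adjusted 0.470). The urea cycle gene Cps1 differed by -0.61 with overlapping libraries, Asgr1 by -0.02, and Apob by 0.22 with both KO values above both WT values. Depth, estimated from the lowest steps of the values, lay between 15300000 and 19400000 fragments per library.

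The promoters of these genes were searched for short sequence motifs. RefSeq promoter windows on GRCm38.p6, the build of mm10, run from 250 bases before to 50 bases after each annotated start, and 23 of the 28 genes had at least 1 such window. The 5 genes for which none was printed or searched were Fdps, Fdft1, Sqle, Stard4 and Soat2. The letters CCAAT, read on either strand, are those bound by NF-Y, a factor known to act together with SREBP2. They occurred in a window of 20 of these 23 genes, against 41.06% of the 27025 genes with windows. Acat2, Aacs and Scap had none. GGGCGG, the GC box bound by Sp1 factors, was in 23 of their 29 windows and in 35.66% of all 32851 windows. The sterol regulatory element core TCACNCCAC was found in 1 of the 29 windows, that of Hmgcs1, and in 1.24% of all windows. Only these exact letters, with N as any base, were searched. A window without a match may therefore hold a sterol element with other letters. Matches of different motifs did not overlap in these windows, genes with several starts had several windows, and a match is a description of letters, not a binding site. The genes and windows compared with were not matched for expression or base content, so the shares describe and do not test.

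The windows below belong to genes on which the results turn, printed 5′ to 3′ on the strand of the gene, with matches of TCACNCCAC and CCAAT on either strand in capitals. Hmgcs1 holds the sterol regulatory element core, beginning 137 bases before its start, and 4 CCAAT matches; Msmo1 and Cyp51, demethylation enzymes, hold 3 and 1. Insig1 and Insig2 are shown because their differences had opposite signs. The outer Insig2 start has 3 CCAAT matches and an inner start has none.
Hmgcs1, chr13:119690101-119690400, plus strand: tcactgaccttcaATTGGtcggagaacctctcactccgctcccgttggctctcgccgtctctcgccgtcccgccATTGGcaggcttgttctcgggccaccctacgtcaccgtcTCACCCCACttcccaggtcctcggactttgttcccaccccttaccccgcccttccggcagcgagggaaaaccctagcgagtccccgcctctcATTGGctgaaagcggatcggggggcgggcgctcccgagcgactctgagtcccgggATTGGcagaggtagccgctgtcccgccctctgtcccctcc
Msmo1, chr8:64733529-64733828, minus strand: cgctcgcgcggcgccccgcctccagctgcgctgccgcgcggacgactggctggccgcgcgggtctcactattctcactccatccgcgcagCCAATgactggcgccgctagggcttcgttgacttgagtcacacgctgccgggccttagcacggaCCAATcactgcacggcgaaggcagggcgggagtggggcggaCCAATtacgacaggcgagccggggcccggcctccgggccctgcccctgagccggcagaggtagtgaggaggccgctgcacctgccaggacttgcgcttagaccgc
Cyp51, chr5:4104648-4104947, minus strand: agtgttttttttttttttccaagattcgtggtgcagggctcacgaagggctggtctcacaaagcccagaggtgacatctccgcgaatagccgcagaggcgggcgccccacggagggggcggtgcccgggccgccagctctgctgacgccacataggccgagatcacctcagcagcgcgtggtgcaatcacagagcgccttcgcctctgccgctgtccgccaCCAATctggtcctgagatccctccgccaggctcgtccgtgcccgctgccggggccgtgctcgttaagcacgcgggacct
Insig1, chr5:28071162-28071461, plus strand: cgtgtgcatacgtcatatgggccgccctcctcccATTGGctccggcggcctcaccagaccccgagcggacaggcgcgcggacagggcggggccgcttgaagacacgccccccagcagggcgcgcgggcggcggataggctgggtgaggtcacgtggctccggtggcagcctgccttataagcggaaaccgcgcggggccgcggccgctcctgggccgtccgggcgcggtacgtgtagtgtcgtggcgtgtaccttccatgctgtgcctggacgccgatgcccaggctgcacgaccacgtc
Insig2 outer start, chr1:121332540-121332839, minus strand: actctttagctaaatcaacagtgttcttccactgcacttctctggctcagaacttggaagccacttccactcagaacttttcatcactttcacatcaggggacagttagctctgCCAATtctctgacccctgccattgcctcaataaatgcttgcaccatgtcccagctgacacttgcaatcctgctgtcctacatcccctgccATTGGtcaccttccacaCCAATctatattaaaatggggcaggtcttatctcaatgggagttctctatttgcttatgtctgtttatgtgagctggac
Insig2 inner start, chr1:121327975-121328274, minus strand: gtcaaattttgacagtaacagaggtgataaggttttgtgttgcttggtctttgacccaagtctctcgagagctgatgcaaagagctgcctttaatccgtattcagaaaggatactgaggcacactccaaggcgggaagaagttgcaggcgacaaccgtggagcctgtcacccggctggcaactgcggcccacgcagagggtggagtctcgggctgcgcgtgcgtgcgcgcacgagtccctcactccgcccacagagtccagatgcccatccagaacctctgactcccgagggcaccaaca

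By level, the 27 tested genes spanned a wide range. Insig2 was the most abundant, with a mean of 241 FPKM over the 4 libraries, followed by the sterol desaturase gene Sc5d (131 FPKM), the sterol C4-methyl oxidase gene Msmo1 (121 FPKM) and the farnesyl diphosphate synthase gene Fdps (120 FPKM). Mylip (2.58 FPKM) and the mevalonate diphosphate decarboxylase gene Mvd (2.71 FPKM) were the lowest of those tested. The enzymes of the pathway were therefore not expressed evenly. Among the early steps alone, Fdps stood far above Mvk and Pmvk, the mevalonate kinases, at 8.98 and 9.62 FPKM. Exons of other genes overlap Hmgcs1, Idi1, Lss, Cyp51 and Scap on the opposite strand, and whether counting used strand is not known, which leaves their levels uncertain to that extent. The plot of levels by library shows that these differences between genes were much larger than those between genotypes.

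**Figure D1:**
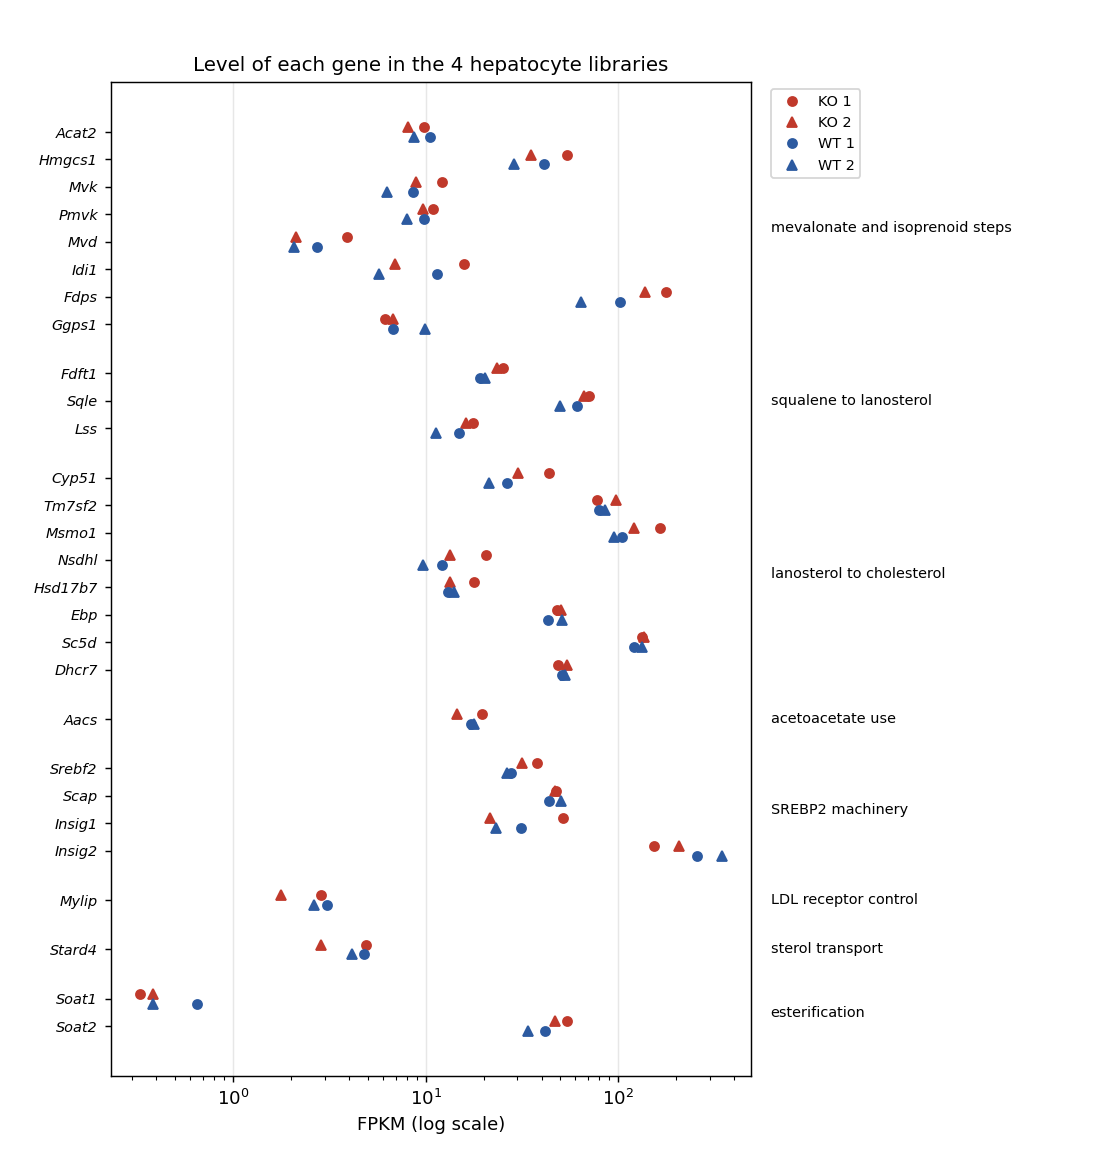
Level of each of the 28 genes in FPKM (log axis) in KO 1, KO 2, WT 1 and WT 2, grouped by role. Insig2 and Fdps show KO and WT libraries apart in opposite directions, with KO below WT for Insig2 and above WT for Fdps, whereas Insig1 spreads widely within KO (51.6 and 21.7 FPKM).

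Most synthesis genes had higher mean values in KO. Of the 19 synthesis enzymes 16 were higher, against 49.7% of all genes tested, with a median log2 difference of 0.29. For 9 of them both KO values exceeded both WT values, against 18.3% of all genes tested. Both were below for 1, against 19.8%. Of the 27 genes tested 20 were higher in KO, against 49.7% of all genes tested, and the median log2 difference was 0.21, against -0.0011 over all genes tested. Both KO values exceeded both WT values for 11 of the 27, where 18.3% of all genes tested had that pattern, and were below both for 2, Insig2 and Ggps1, where 19.8% did. Together 13 of the 27 had genotypes apart, against 38.1% of all genes tested. By limma with Benjamini-Hochberg adjustment over all genes tested, 0 of the 27 genes had an adjusted p under 0.05 (percent of all genes called, 0) and the lowest adjusted p among them was 0.547. At an unadjusted p under 0.05 there were 8 of the 27, against 7.29% of all genes tested; 7 were higher (3.1% of all genes tested) and 1 was lower (4.19%). The list was chosen with results of these data known, so these counts describe it and do not test it. Without KO 1 the median was 0.10 and 16 of 27 were higher; without KO 2 it was 0.35 with 22 higher, without WT 1 0.33 and without WT 2 0.13. Counts at an unadjusted p under 0.05 are not given for these fits, since the lone library of a genotype has no spread of its own.

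The 2 libraries of a genotype differed as well. KO 1 was the highest library for 18 of the 27 genes, a position it held for 26.4% of all genes tested, and WT 2 was the lowest for 13, against 27.7% of all genes tested. KO 1 exceeded KO 2 for 21 genes and WT 1 exceeded WT 2 for 17. The median ratio of the higher to the lower library was 1.28 within KO and 1.22 within WT, against 1.13 and 1.11 over all genes tested. For the 19 synthesis enzymes these medians were 1.26 within KO and 1.23 within WT, also above those of all genes tested. By step, within KO and within WT, they were 1.32 and 1.40 (early), 1.08 and 1.22 (squalene to lanosterol) and 1.30 and 1.10 (lanosterol to cholesterol). The wider spread was thus not seen at every step.

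Markers of other liver cells also differed between libraries. Summed over 6 sinusoidal endothelial markers, the level was 55.5 FPKM in KO 1 and 27.1 FPKM in KO 2, against 39.8 FPKM in WT 1 and 37.7 FPKM in WT 2, so KO 1 was highest and KO 2 lowest. Of these 6 markers, 4 were higher in KO, against 49.7% of all genes tested, and 0 had genotypes apart, against 38.1%. The 7 stellate and fibroblast markers summed to 23.7 and 10.5 FPKM in KO and 13.8 and 16.0 FPKM in WT, most of it Dcn, with Lrat, which marks stellate cells, between 0.241 and 0.953 FPKM in the 4 libraries. Of the 2 tested, Dcn overlapped between genotypes (0.38) and Reln was lower in both KO libraries, at 2.79 and 2.33 FPKM in KO and 3.47 and 5.65 FPKM in WT (-0.62). The 7 macrophage markers summed to 410 and 482 FPKM in KO and 367 and 361 FPKM in WT, nearly all of it Cd68. All 6 tested macrophage markers were higher in KO, 4 of them with both KO values above both WT values, against 18.3% of all genes tested. The scavenger receptor gene Marco stood at 6.28 and 5.70 FPKM in KO and at 2.54 and 3.14 FPKM in WT (log2 difference 0.87). Cd5l, secreted by macrophages, stood at 4.82 and 4.62 FPKM in KO and at 2.81 and 2.28 FPKM in WT (0.69), and Clec4f, which defines Kupffer cells, at 0.599 and 1.57 FPKM in KO and at 0.888 and 1.11 FPKM in WT. The 5 cholangiocyte markers summed to 36.9 and 23.1 FPKM in KO and 35.5 and 32.4 FPKM in WT, most of it Spp1. Krt7, Krt19 and Epcam were under 0.3 FPKM in every library, with Krt7 listed at 0 in both KO libraries and Epcam at 0 in WT 2, and the 2 tested markers, Spp1 (-0.28) and Sox9 (0.05), overlapped between genotypes. In these bulk libraries, fewer cells of a type and less RNA per cell cannot be told apart, and the part of these cells in the results on sterol genes was not tested.

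The early steps lead from acetyl-CoA to the C15 and C20 isoprenoids. Of the 8 genes 6 had higher means in KO libraries, and their median log2 difference was 0.27. Fdps makes farnesyl diphosphate, the branch point between sterols and other isoprenoids, and is encoded by chromosome 3, minus strand, 89093588 to 89101959 (mm10). It stood at 177 FPKM in KO 1 and 138 FPKM in KO 2, against 102 FPKM in WT 1 and 64.5 FPKM in WT 2. Both KO libraries were higher than both WT libraries, although the spread within each genotype was large. The log2 difference was 0.94 (SE 0.24, 95% interval 0.36 to 1.51), the largest of the 28, and 0.211% of all genes tested had a value as high. Its limma p was 0.00749 unadjusted and 0.547 adjusted over all genes tested, and without WT 2 the difference was 0.61. An exon of the gene model Gm43738 overlaps Fdps on the same strand, so fragments could be shared between them.

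Before that step, Mvk, mevalonate kinase, showed the same arrangement at a lower level. It stood at 12.1 and 8.87 FPKM in KO and at 8.63 and 6.29 FPKM in WT, a log2 difference of 0.44 (SE 0.20). The lower KO library exceeded the higher WT library by a small margin, and leaving out WT 2 or KO 1 brought the difference to 0.24 or 0.23 (unadjusted limma p with all libraries 0.0708). Hmgcs1, the cytosolic HMG-CoA synthase, stood at 54.1 and 35.3 FPKM in KO and at 41.3 and 28.8 FPKM in WT. Its libraries overlapped, because WT 1 exceeded KO 2, and its log2 difference of 0.33 (SE 0.25) was 0.03 without KO 1 and 0.08 without WT 2.

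Idi1, isopentenyl-diphosphate isomerase, varied most among the enzymes between cultures of the same genotype. It stood at 15.8 and 6.90 FPKM in KO and at 11.4 and 5.72 FPKM in WT, so replicates differed by 2.29 times in KO and 1.99 times in WT. Its log2 difference of 0.34 (SE 0.42) had an interval of -0.70 to 1.38 and turned to -0.21 without KO 1 and -0.11 without WT 2. Part of its transcript has near copies in the gene models Gm13502, Gm35570 and Gm8911, at 90.6% to 100% identity over 679 to 684 bases. The phosphomevalonate kinase gene Pmvk (0.20) and Mvd (0.21) were also higher in KO with overlapping libraries, and Mvd turned to -0.11 without KO 1.

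The 2 early genes that were lower in KO make products outside the sterol line or feed it from the start. Ggps1 makes geranylgeranyl diphosphate, used to anchor small GTPases to membranes. It stood at 6.12 and 6.75 FPKM in KO and at 6.81 and 9.87 FPKM in WT, which put both KO libraries just below WT 1 and well below WT 2. The log2 difference was -0.31 (SE 0.18, unadjusted limma p 0.143), and it was -0.07 without WT 2. The fold of Ggps1 is uncertain to the extent that the model Gm5630 matches 903 of its bases at 97.2% identity and that an exon of Arid4b overlaps it on the opposite strand. Acat2, the cytosolic thiolase that joins acetyl-CoA units, stood at 9.78 and 8.10 FPKM in KO and at 10.5 and 8.66 FPKM in WT (log2 difference -0.09). It shares 97.7% identity over 1477 bases with its paralogue Acat3 and 98.7% over 445 bases with Tcp1, and its sign turned without WT 1 and without KO 2 (0.04 and 0.03).

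The steps through squalene to lanosterol were higher in KO at each gene. Fdft1 joins farnesyl units into squalene, Sqle adds the oxygen and is a rate-limiting oxidase of the pathway, and Lss closes the rings. All 3 had both KO libraries above both WT libraries, a pattern that 18.3% of all genes tested had. Their log2 differences were 0.29, 0.31 and 0.36. Fdft1 stood at 25.3 and 23.5 FPKM in KO and at 19.1 and 20.3 FPKM in WT. Sqle stood at 70.7 and 66.4 FPKM in KO and at 60.9 and 49.9 FPKM in WT. Lss stood at 17.7 and 16.2 FPKM in KO and at 15.0 and 11.3 FPKM in WT. Fdft1 had the smallest spread of these 3 relative to its difference, with an interval of 0.04 to 0.55. Its unadjusted limma p was 0.0303, whereas those of Sqle and Lss, 0.0504 and 0.0605, were above 0.05. Adjusted over all genes tested, the limma p of Fdft1, Sqle and Lss were 0.639, 0.682 and 0.687. Without WT 2 the differences of Sqle and Lss were both 0.17, and that of Fdft1 lay between 0.24 and 0.35 whichever library was left out. A model named Gm6781 matches 1249 bases of Fdft1 at 97.4% identity, and Ctsb overlaps it on the opposite strand.

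From lanosterol to cholesterol, 7 of 8 genes were higher in KO, by very different amounts. The enzymes that remove the 3 extra methyl groups are Cyp51, a cytochrome P450 that demethylates at C14, Msmo1, which oxidises the C4 methyl groups, Nsdhl, a dehydrogenase that takes them off as carbon dioxide, and Hsd17b7, which reduces the resulting ketone. The first 3 had both KO values above both WT values, as did 18.3% of all genes tested. Cyp51 stood at 43.6 and 30.1 FPKM in KO and at 26.5 and 21.4 FPKM in WT (log2 difference 0.59, SE 0.20). Msmo1 stood at 165 and 121 FPKM in KO and at 104 and 95.2 FPKM in WT (0.50, SE 0.16). Nsdhl stood at 20.6 and 13.4 FPKM in KO and at 12.1 and 9.65 FPKM in WT (0.58, SE 0.22). In each case KO 2 lay nearer to WT 1 than to KO 1, and the differences without KO 1 were 0.32, 0.28 and 0.28. Their unadjusted limma p were 0.0260, 0.0224 and 0.0383, and the adjusted p were 0.614, 0.596 and 0.664. Hsd17b7 stood at 17.9 and 13.4 FPKM in KO and at 13.1 and 14.0 FPKM in WT, overlapping, and its difference of 0.18 turned to -0.01 without KO 1.

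The enzymes that shift and reduce the double bonds had differences near 0. They are Tm7sf2, a C14 reductase, Ebp, the sterol isomerase, Sc5d, the C5 desaturase, and Dhcr7, which reduces the last ring double bond. Their log2 differences were 0.08, 0.07, 0.09 and -0.01. Dhcr7, whose loss in people causes Smith-Lemli-Opitz syndrome, stood at 48.9 and 54.1 FPKM in KO and at 50.9 and 52.8 FPKM in WT. Its interval of -0.26 to 0.24 bounds the difference and does not show equality. Sc5d, at 134 and 136 FPKM in KO and 121 and 133 FPKM in WT, was the only one of the 4 with libraries apart, by a margin smaller than the gap between the WT libraries. Ebp turned to -0.05 without WT 1 and Tm7sf2 to -0.08 without KO 2, and an exon of Vps51 overlaps Tm7sf2 on the same strand. No test was made between the demethylating enzymes and these 4, so a difference between the steps was not shown.

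**Figure D2:**
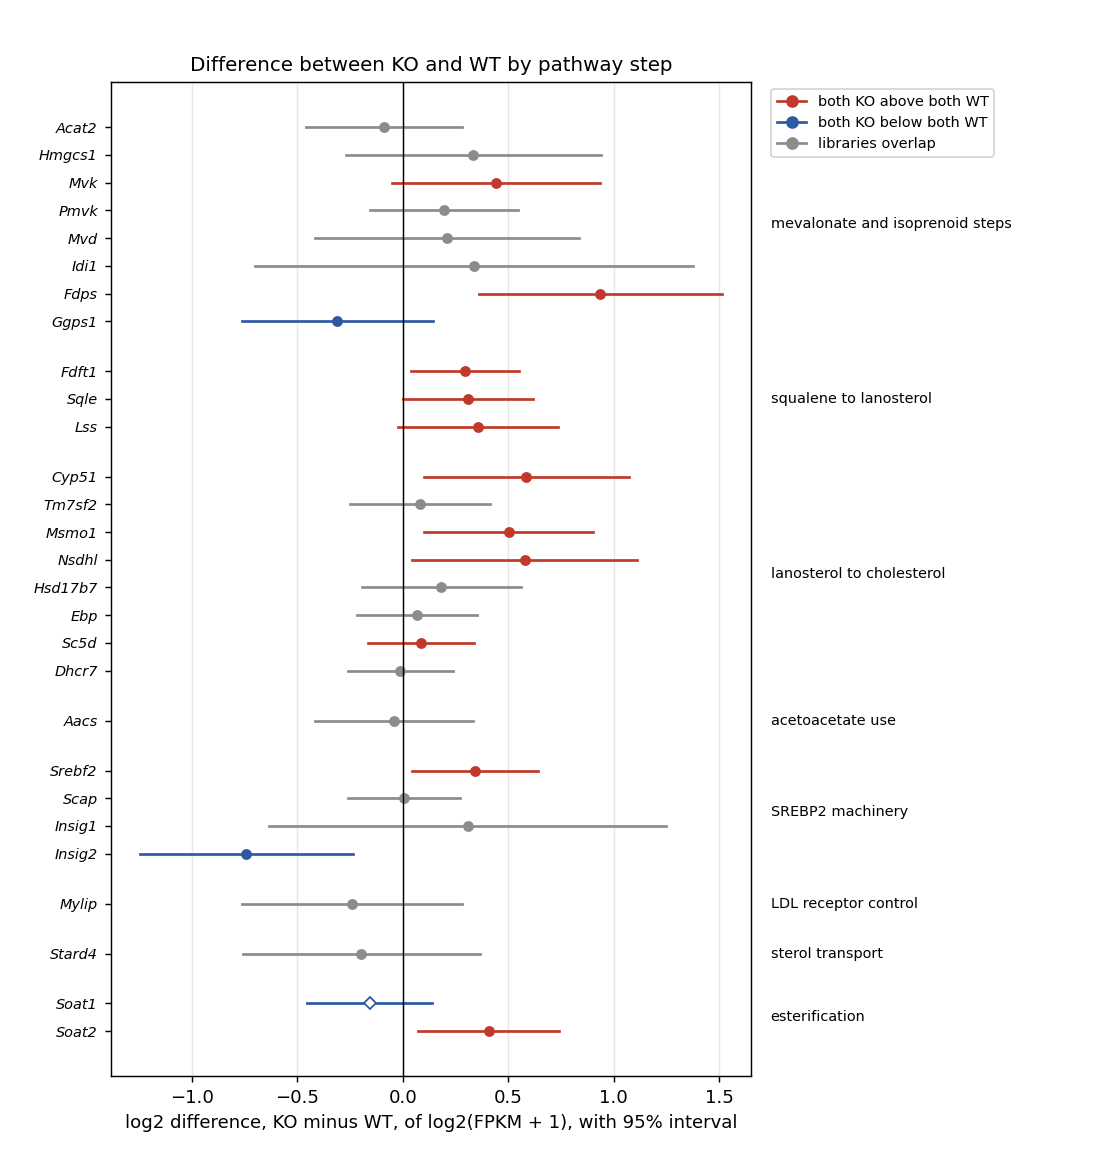
Log2 difference, KO minus WT, of log2(FPKM + 1) for each gene by role, with its 95% interval from limma (n = 2 per genotype); colours mark whether the KO values were both above the WT values, both below, or overlapped, and the open diamond (Soat1) was read from the fit without the level filter. Fdps at 0.94 and Insig2 at -0.74 are the outermost points, and the intervals of 8 tested genes do not cross 0.

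The 4 genes of the SREBP2 machinery differed from each other in direction and size. Srebf2 encodes SREBP2, which also activates its own gene. It stood at 38.0 and 31.5 FPKM in KO and at 27.7 and 26.6 FPKM in WT. The KO libraries were both above the WT libraries, which were close together. The log2 difference was 0.34 (SE 0.12, interval 0.04 to 0.64, unadjusted limma p 0.0315, adjusted 0.643), and it was 0.21 without KO 1. Scap, which escorts SREBP2, stood at 47.6 and 47.1 FPKM in KO and at 43.9 and 50.6 FPKM in WT, a log2 difference of 0.01 whose sign turned without KO 1 and without WT 1.

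The INSIG genes, which encode the paired retention proteins, pointed in different directions. Insig2 (chromosome 1, minus strand, 121304353 to 121332589) stood at 153 FPKM in KO 1 and 207 FPKM in KO 2, against 255 FPKM in WT 1 and 347 FPKM in WT 2. Both KO libraries were below both WT libraries, with KO 2 and WT 1 closer to each other than the libraries within either genotype. The log2 difference was -0.74 (SE 0.21, interval -1.25 to -0.24), and 0.788% of all genes tested had a value as low. Its limma p was 0.0116 unadjusted and 0.562 adjusted over all genes tested, and the difference was -0.53 without KO 1, -0.52 without WT 2 and -0.96 without either of the other libraries. In mouse and rat liver Insig2 is known to have a liver-specific transcript that insulin lowers and fasting raises. The table gives 1 value per gene, so the transcripts from the outer and inner starts printed above were not told apart.

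Insig1, a classic SREBP target, had the widest spread of all tested members within KO. It stood at 51.6 FPKM in KO 1 and 21.7 FPKM in KO 2, against 31.2 FPKM in WT 1 and 23.2 FPKM in WT 2. KO 1 was the highest and KO 2 the lowest of the 4 libraries. The log2 difference of 0.31 (SE 0.38) had an interval of -0.63 to 1.25 and turned to -0.30 without KO 1, whereas it was 0.91 without KO 2. Within a library, the ratio of Insig1 to Insig2 was 0.337 and 0.105 in KO and 0.122 and 0.0669 in WT, so KO 2 lay inside the WT range. The summed INSIG level, most of it Insig2, was 204 and 228 FPKM in KO and 287 and 371 FPKM in WT, with the genotypes apart. The ratio of Insig2 to Scap, the protein pair that retains SREBP2, was 3.21 and 4.39 in KO and 5.82 and 6.86 in WT. With 2 libraries against 2 no exact permutation test of such a ratio can reach a p of 0.05, so none was made.

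**Figure D3:**
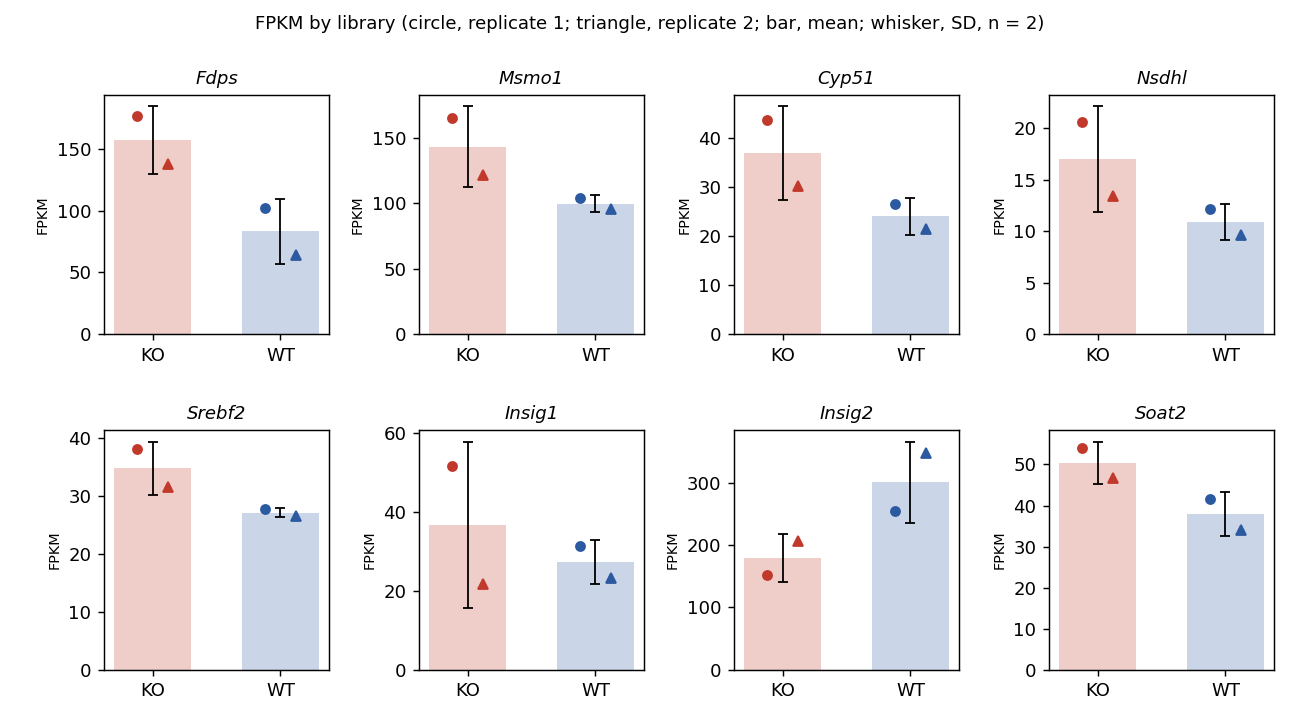
FPKM of 8 genes by library, with the mean as a bar and the SD as a whisker (n = 2), KO left of WT on axes that start at 0. Fdps, Msmo1, Cyp51, Nsdhl, Srebf2 and Soat2 have both KO points above both WT points, Insig2 has both below, and Insig1 overlaps.

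The esterifying enzymes of the endoplasmic reticulum were dominated by Soat2, known as the main form in mouse hepatocytes. Soat2 stood at 54.1 and 46.7 FPKM in KO and at 41.6 and 34.1 FPKM in WT. Both KO libraries were above both WT libraries, with a log2 difference of 0.41 (SE 0.14, interval 0.07 to 0.74, unadjusted limma p 0.0252, adjusted 0.614) that stayed between 0.27 and 0.55 with any library left out. Soat1, the form of macrophages and many other cells, stood at 0.327 and 0.382 FPKM in KO and at 0.646 and 0.385 FPKM in WT, under the level filter. At that level few fragments stand behind each value, KO 2 and WT 2 were almost equal, and the difference of -0.16 (SE 0.11) was -0.03 without WT 1. The ratio of Soat2 to Soat1 was 165 and 122 in KO and 64.4 and 88.6 in WT.

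The remaining members supply precursors or handle sterol after it is made, and each had overlapping libraries. Aacs, which activates acetoacetate for cytosolic synthesis, stood at 19.6 and 14.6 FPKM in KO and at 17.1 and 17.8 FPKM in WT (log2 difference -0.04). Mylip, the ubiquitin ligase that sends the LDL receptor to lysosomes and is itself a target of the sterol-sensing LXR factors, stood at 2.85 and 1.76 FPKM in KO and at 3.08 and 2.64 FPKM in WT (-0.24, SE 0.21). Stard4, a cytosolic sterol carrier and known SREBP2 target, stood at 4.91 and 2.86 FPKM in KO and at 4.79 and 4.17 FPKM in WT (-0.20, SE 0.23). KO 2 was the lowest library for all 3. Without KO 2 the differences of Aacs, Mylip and Stard4 were 0.16, -0.00 and 0.11. None of these 3 had the higher mean in KO seen for most synthesis enzymes.

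Each library was left out in turn to see which differences kept their sign. The sign of the difference turned at least once for 11 of the 27 tested genes, and held in every such fit for the other 16. Of these 16, 13 had KO and WT libraries apart, against 38.1% of all genes tested. For those 13 the sign could not turn with any library left out, so its holding adds nothing to that pattern. Fdps, Cyp51, Msmo1, Nsdhl, Fdft1, Sqle, Lss, Srebf2, Soat2 and Insig2 are among the 13. The values of Insig1 and Idi1 covered the widest ranges across these fits.

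**Figure D4:**
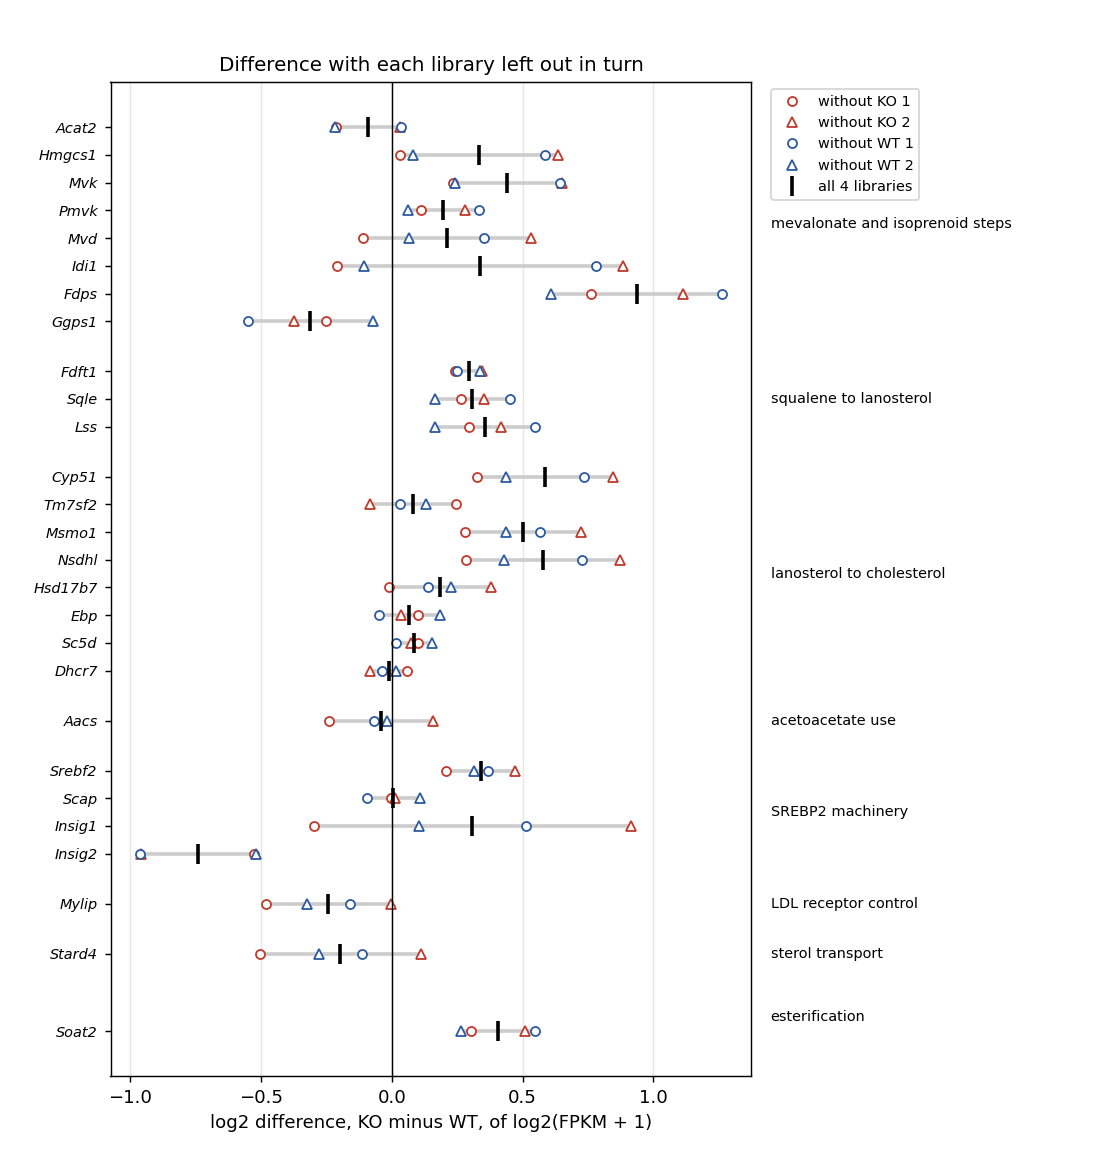
Log2 difference, KO minus WT, of the 27 tested genes with all 4 libraries (bar) and with each library left out (open symbols). Insig1 runs from -0.30 without KO 1 to 0.91 without KO 2, whereas Fdft1 stays between 0.24 and 0.35 and Insig2 between -0.96 and -0.52.

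Neighbouring pathways outside the 28 genes were read from lists of related function, with 0 genes past an adjusted p of 0.05 by limma in any of them. Of 11 genes of sterol sensing and SREBP processing, 8 were higher in KO, 5 had both KO values above both WT values and 0 below, and 2 passed an unadjusted p of 0.05, both higher. Over all genes tested, the share higher in KO was 49.7%, the share above was 18.3%, the share below was 19.8% and the share higher at an unadjusted p under 0.05 was 3.1%. Paqr3, a Golgi protein described as an anchor for SCAP and SREBP, stood at 3.99 and 4.05 FPKM in KO and at 2.60 and 1.56 FPKM in WT (log2 difference 0.73, SE 0.21). Mbtps2, the site-2 protease that frees SREBP, stood at 16.0 and 15.1 FPKM in KO and at 12.8 and 11.7 FPKM in WT (0.32, SE 0.11). The gene of the other lipid-related SREBP, Srebf1, overlapped between genotypes at 40.3 and 29.5 FPKM in KO and 30.5 and 29.8 FPKM in WT.

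The listed SREBP-responsive genes, most of them of fatty acid metabolism, were mixed. Mmab (0.32), Rdh11 (-0.11) and Pcyt2 (-0.15) are counted among them but do not make fatty acids. Of 12 tested, 9 were higher in KO, against 49.7% of all genes tested, and their median log2 difference was 0.25. Both KO values were above both WT values for 4, against 18.3% of all genes tested, and below for 2, against 19.8%. The desaturase genes Fads2 (0.996), Fads1 (0.71) and Scd1 (0.66) had the largest differences, whereas Acaca, the acetyl-CoA carboxylase that commits carbon to fatty acids, stood at 9.73 and 8.57 FPKM in KO and at 11.5 and 11.2 FPKM in WT. The 4 genes of cytosolic acetyl-CoA supply had differences between -0.10 (Acss2) and 0.13 (Acat1), with citrate carrier Slc25a1 (0.12) the only one with libraries apart.

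Cholesterol uptake, transport and efflux genes showed no common lean. Of 13 tested genes of uptake and intracellular transport, 6 were higher and 7 lower in KO. Tmem97, a sterol-regulated protein of the endoplasmic reticulum, stood at 167 FPKM in both KO libraries and at 147 and 130 FPKM in WT (0.27). Lrp1, a remnant receptor, stood at 30.0 and 37.9 FPKM in KO and at 41.4 and 44.9 FPKM in WT (-0.35), and the lipoprotein receptor gene Vldlr had overlapping libraries (-0.36). Of 7 tested LXR and efflux genes, 3 were higher and 4 lower. The phospholipid transfer protein gene Pltp stood at 10.4 and 7.77 FPKM in KO and at 5.84 and 5.75 FPKM in WT (0.56), and Abcg5, a subunit of the canalicular sterol exporter, at 1.67 and 1.67 FPKM in KO and at 2.39 and 3.52 FPKM in WT (-0.55). Lcat, which esterifies cholesterol in plasma lipoproteins, overlapped (-0.48). Among 8 tested genes of other isoprenoid branches, 7 were higher and 1 lower in KO. Coq2, which attaches the isoprenoid tail of ubiquinone, was the most different of these at 35.4 and 38.7 FPKM in KO and 31.7 and 27.8 FPKM in WT (0.31). The 7 electron donors and scaffold proteins of the sterol enzymes lay between -0.18 (Por, the P450 reductase that also serves Cyp51 and Sqle) and 0.15 (Lbr, a second C14 reductase).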

How the data were processed

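Tools named without a role in the submitters' processing notes are Cuffdiff 2.2.1, Cufflinks and STAR 2.5.0, and the build is mm10. The kit was a stranded TruSeq mRNA kit, per the labels' protocols; which annotation and strand option served for counting is not given in the sources used here. A table was deposited with 1 value per gene and library, read as FPKM from the named tools and from values that are not whole and have unequal totals. FPKM is already scaled to length and depth, so no count model was used.

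From these values, 21984 of 22079 identifiers were matched to GENCODE M21 symbols on the same build. Differences are on the log2(FPKM + 1) scale, which understates changes of low genes. KO was compared with WT by limma 3.58.1 in R 4.3.3 (lmFit, eBayes with trend), two-sided, over 10407 genes whose mean reached 1 FPKM, with Benjamini-Hochberg adjustment and no covariate. Soat1 and Prom1 were read from the fit over 15152 genes above 0 in any library. The fit was tested on simulated data. Depth was estimated from single-transcript genes with an assumed fragment length of 200 bases and is approximate. At the best depth 30.1% to 34.7% of low values were near whole fragments, against 20.2% to 20.3% on average over all depths tried. The best depth was picked for that share, so it exceeds the average by construction and the contrast does not test the estimate. Near copies share at least 300 bases at 90% identity or more between GENCODE transcripts. Promoter windows are from RefSeq, GRCm38.p6.

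The genes, gene lists and tests were chosen with earlier results of these data known. All 28 members are given; of each wider list, up to 3 tested genes with the largest absolute difference are named, and further ones were chosen after their values were seen.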

Additional observations from a re-analysis of the deposited data

How the results depend on the processing

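The count of genes past an adjusted p of 0.05 was 0 with all libraries; it was 8 without WT 1, 5 without KO 1 and 0 with WT 2 or KO 2 left out, so these fits ranged from 0 to 8. In none of the 12 alternatives was any of the 28 genes past that threshold, and the lowest adjusted p among them was 0.141 (Fdps without WT 1). The median log2 difference of the members tested ran from 0.10 to 0.35 with a library left out, against 0.21 with all. The number with every KO library above every WT library, 11 with all, was not compared with that of these fits. With 3 libraries that pattern is easier to meet by construction, and its share over all genes was not computed. Pseudocounts of 0.1 and 5, the 2 scalings, the filters and the fit without trend left 19 or 20 members higher in KO. Scaling to a common total left 9 with both KO libraries above both WT libraries. The totals used there include Alb, listed at 0 in WT 2 alone, which affects the scaling of that library. Of the single genes, 11 turned sign, each only with a library left out, and their values then ran from -0.22 to 0.036 (Acat2), -0.11 to 0.53 (Mvd), -0.21 to 0.88 (Idi1), -0.083 to 0.25 (Tm7sf2), -0.012 to 0.38 (Hsd17b7), -0.050 to 0.19 (Ebp), -0.082 to 0.060 (Dhcr7), -0.24 to 0.16 (Aacs), -0.095 to 0.11 (Scap), -0.30 to 0.91 (Insig1) and -0.50 to 0.11 (Stard4). The cause was not tested. When a library is left out, the lone library of a genotype is assumed to vary like the others.

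Libraries share the numbers 1 and 2 across genotypes, but nothing in the labels says that a number marks a shared day or litter. Deviations of same-numbered libraries from their genotype means correlated at 0.15 over all genes tested and at 0.74 over the 27 members, across genes that are not independent. With the replicate block, 0 genes passed an adjusted p of 0.05 and the number at an unadjusted p under 0.05 was 1054 of all genes, against 759, and 13 of the 27 members, against 8. Depth limits Soat1 most, which stood under 1 FPKM in every library.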
